A study of Homo sapiens with 4 samples.

Results

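The hnRNP and SR splicing factors are the protein-coding genes with an HNRNP, SRSF, SF3A or SF3B symbol, together with U2AF1, U2AF2, TRA2A, TRA2B, RBFOX2 and PTBP1 to PTBP3. The symbol rule found 56 such genes among the 58051 genes of the count files, and 52 of them passed the filter on low counts. The cells were A549, a human lung carcinoma line long established in culture, and carried a doxycycline-inducible A-Fos placed at random sites by piggyBac transposase, which the titles name a knock-in. The minus Dox group is 2 libraries of these cells left untreated, and the plus Dox group is 2 libraries of the same cells given doxycycline at 1 µg/mL. Cells of both groups therefore carry the transgene, and A-Fos induction cannot be told apart from doxycycline itself. The promoter behind A-Fos, the length of the treatment, whether the cells are 1 clone and whether the libraries of a group are separate cultures were not given in the sources used here. The p-values therefore rest on the spread between these libraries, which may be technical.

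A-FOS is a dominant-negative partner of JUN proteins and is used to block the AP-1 transcription factors. Splicing factors decide which parts of a pre-mRNA are joined. SR proteins carry RNA recognition motifs and a tail rich in serine and arginine, bind mostly exonic enhancers and recruit the spliceosome. The hnRNP proteins coat nascent RNA and often repress nearby exons, so that SR and hnRNP proteins commonly oppose each other. The SF3A and SF3B proteins belong to the U2 small nuclear ribonucleoprotein, which recognizes the branch point, and U2AF binds the polypyrimidine tract and the AG of the 3′ splice site. Many genes of the SR and hnRNP families limit their own levels through exons that lead to nonsense-mediated decay.

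Total counts ranged from 31104964 to 40526912 per library. Reads counted to FOS, which may include those of A-Fos, stood at 1.36 and 1.52 CPM without and 48.6 and 51.0 CPM with doxycycline (log2 fold change 5.10, SE 0.112, adjusted p = 1.12e-29 by edgeR). Epithelial keratins mark these cells and moved with the groups: KRT7 went from 4544 ± 139 to 526 ± 3.07 CPM, KRT8 from 5280.1 ± 67.1 to 3656 ± 70.0 CPM and KRT18 from 2807 ± 35.0 to 2151 ± 64.0 CPM (SD, n = 2). The summed level of 9 epithelial lung markers was 12628 and 12968 CPM without and 6491 and 6295 CPM with doxycycline. Of the 9, 5 fell and 2 did not pass, and the lung markers NKX2-1 and SFTPB, at 0 to 0.177 CPM, were too low to test. With a trend over GC content, exon length and abundance removed, 3 of these markers were lower and 2 higher. Their part in the results was not tested. Of markers of other cells, 5 for leukocytes summed to 3.79 to 5.31 CPM with CD3E at 0 in every library, 4 for endothelium to 0.805 to 1.63 CPM, and 5 for fibroblasts to 37.6 to 47.9 CPM, of which COL1A1 made up 34.3 to 43.7 CPM. In bulk RNA, fewer cells of a type and less RNA per cell cannot be told apart.

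With doxycycline 8 of 14 SR and SR-like genes (57.1%) rose and 0 fell. Of 11 SF3A, SF3B and U2AF genes, called U2 genes here, 9 (81.8%) fell and 1 (9.09%) rose. With library size only 12 SR genes (85.7%) were higher and 0 lower, against 43.6% and 16.2% of all tested genes. With a trend over GC content, exon length and abundance removed 6 SR genes (42.9%) were higher and 1 (7.14%) lower, against 29.5% and 24.9%. Without plus Dox replicate 2 the SR genes that rose were 5, and without minus Dox replicate 1 they were 8 with 2 lower. By library size only the U2 genes that fell were 5 (45.5%), with 2 (18.2%) higher, against 16.2% and 43.6% of all tested genes. With a trend over GC content, exon length and abundance removed they were 4 (36.4%), with 3 (27.3%) higher, against 24.9% and 29.5%. Of 23 tested genes with an HNRNP symbol 13 (56.5%) fell and 2 (8.7%) rose. The order turned with library size only, where 8 (34.8%) were higher and 4 (17.4%) lower, against 43.6% and 16.2% of all tested genes. Of all 52 tested members 12 (23.1%) were higher and 25 (48.1%) lower in plus Dox, with edgeR's quasi-likelihood test and a threshold of 0.05 on the adjusted p. Of all 18046 tested genes 56.9% passed, 28.4% higher and 28.4% lower. The members are all protein-coding, and of 13964 tested protein-coding genes 4691 were higher and 4452 lower. The median absolute log2 fold change was 0.19 over the members and 0.36 over all tested genes, and 1 member, U2AF1 at counts of 10 to 39, passed with a change of at least 2-fold, against 12.7% of all tested genes.

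Levels are CPM, counts relative to the library size after scaling by TMM. The CPM of both groups did not overlap in 48 of 52 tested members (92.3%), against 77% of all tested genes. In 14 (26.9%) both plus Dox libraries were the higher ones, against 38.7% of all tested genes, and in 34 (65.4%) the lower ones, against 38.3%. The tested members had a median level of 184 CPM, against 14.6 CPM over all tested genes. What this difference in level adds to the shares was not tested. Replicates lay close together: among members at 5 CPM or more the SD of the minus Dox pair was 0.109% to 8.53% of its mean.

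How many members count as higher or lower depends on how the libraries are scaled. With library size only the all-gene median log2 fold change went from 0.00 to 0.22, and 23 members (44.2%) were higher and 11 (21.2%) lower, against 43.6% and 16.2% of all tested genes. With a trend over GC content, exon length and abundance removed, 16 (30.8%) were higher and 14 (26.9%) lower, against 29.5% and 24.9%. Scaling whole libraries adds about the same amount to each gene, so by construction it leaves the distance between the SR and U2 groups unchanged. With TMM the SR median was 0.13 and the U2 median −0.38, a gap of 0.508, the same as with library size only. The gap was 0.462 to 0.547 with any 1 library left out and 0.0908 with the trend removed. The median GC content, taken from each gene's longest transcript, was 40.6% in the SR group, 48.5% in the U2 group and 48.8% over all tested genes. In the same order the median exon length was 4570.5, 4740 and 4242 bases, and the median level 151.5, 153.9 and 14.6 CPM. Which of these moved the gap was not tested. The calls of TRA2A, SRSF10, SRSF5 and HNRNPH2 as higher and of SF3A2, SF3A3, SF3B2, HNRNPH3, PTBP3 and RBFOX2 as lower held under all 10 other settings tried. These are 7.69% and 11.5% of the tested members, against 17% and 13.8% of all tested genes whose call as higher or lower held in the same settings.

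**Figure D1:**
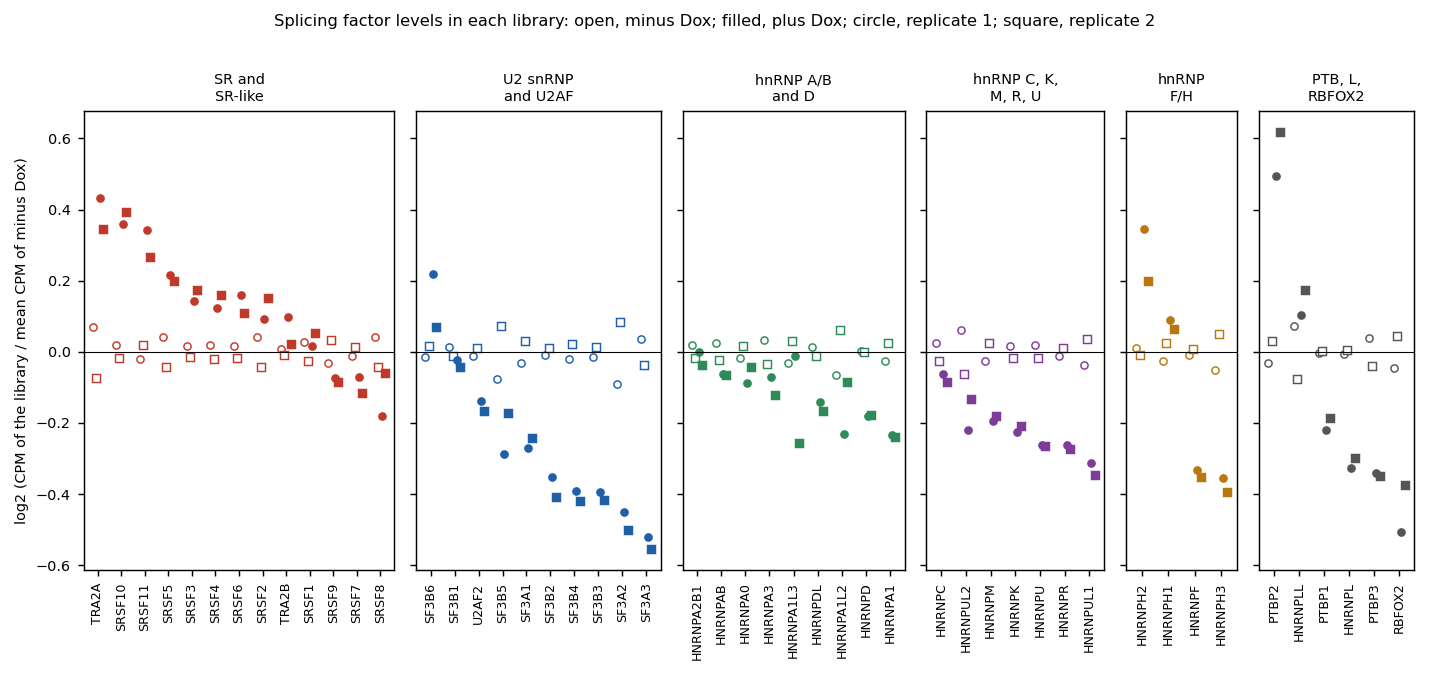
Each point is 1 library, given as log2 of its CPM over the mean of the minus Dox libraries, for the 49 tested members with at least 5 CPM in a group, ordered by fold change within each role. Open symbols are minus Dox and filled symbols plus Dox, circles replicate 1 and squares replicate 2. TRA2A and SRSF10 lie highest among SR genes and SF3A3 lowest among U2 genes, while more HNRNP genes lie below 0 than above it with TMM, and more above it with library size only.

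The promoters are shown because A-FOS acts on a DNA-binding family and several members moved together. RefSeq windows in GRCh38.p14, from 250 bases before to 50 bases after a start, were found for 49 of the 56 members, 65 windows in all since some genes have several starts. SRSF2, HNRNPA1, HNRNPCL3, RBFOX2, TRA2A, HNRNPA1L3 and SF3B3 were not matched. Letters were searched on both strands, and no 2 of the motifs overlapped in the printed windows. The AP-1 letters TGANTCA stood in 1 of 65 member windows (1.54%), that of SF3A2, against 5.57% of 17648 windows of tested genes and 7.71% of all 35116 windows. The CRE letters TGACGTCA stood in 0 member windows, against 2.69% of those of tested genes. The E-box CACGTG, the letters MYC and its relatives bind, stood in windows of 8 members, HNRNPA3, HNRNPD, HNRNPDL, HNRNPH2, HNRNPH3, HNRNPM, HNRNPUL1 and SF3B1 (15.4% of windows against 9.09%), where HNRNPDL and SF3B1 each hold it in 2 windows of alternative starts, which may show the same site. The ETS letters CCGGAAG stood in 7 of 11 windows of the U2 group, those of SF3A1, SF3A2, SF3A3, SF3B2, SF3B4 and U2AF2, which fell, and of SF3B6, which rose, in 2 of 15 of the SR group and in 20.0% of all member windows, against 15.4% of those of tested genes.

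The 80 bases before the start are printed 5′ to 3′ on the strand of the gene, with every match to the 4 motifs in capitals. The SF3a genes stand first, as subunits of 1 complex that all hold the ETS letters and fell, and were picked after their values were seen. The letters also stand in SF3B6, HNRNPLL, SRSF4 and SRSF5, which rose, and are read as CTTCCGG where they lie on the other strand.
SF3A1: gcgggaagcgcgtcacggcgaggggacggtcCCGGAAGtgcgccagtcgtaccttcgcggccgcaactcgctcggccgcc
SF3A2: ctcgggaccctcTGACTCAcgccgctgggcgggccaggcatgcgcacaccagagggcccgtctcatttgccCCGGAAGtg
SF3A3: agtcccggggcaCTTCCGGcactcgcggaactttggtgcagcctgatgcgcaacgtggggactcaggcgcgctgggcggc
For SR genes that rose, SRSF10 has no match in this stretch and SRSF5 has 1.
SRSF10: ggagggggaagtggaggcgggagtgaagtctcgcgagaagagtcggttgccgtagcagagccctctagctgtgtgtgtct
SRSF5: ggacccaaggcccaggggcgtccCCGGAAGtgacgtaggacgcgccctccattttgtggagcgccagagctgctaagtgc
HNRNPD and HNRNPH3, both lower with TMM, carry the E-box, HNRNPH3 in 1 of its 3 windows. It also stands in HNRNPH2, which rose, in SF3B1, which did not pass, and in HNRNPA3, HNRNPDL, HNRNPM and HNRNPUL1, which fell.
HNRNPD: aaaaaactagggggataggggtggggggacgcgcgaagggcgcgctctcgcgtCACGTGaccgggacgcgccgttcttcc
HNRNPH3: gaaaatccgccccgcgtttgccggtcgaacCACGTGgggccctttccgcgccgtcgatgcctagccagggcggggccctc
These stretches lie at chr22:30356895-30356974 (minus strand), chr19:2236744-2236823 (plus), chr1:37990023-37990102 (minus), chr1:23980328-23980407 (minus), chr14:69767062-69767141 (plus), chr4:82373992-82374071 (minus) and chr10:68331613-68331692 (plus). In SF3A2 the AP-1 letters span positions −68 to −62, with −1 the base before the start, and the ETS letters −9 to −3. A match describes the letters and not binding, which was not measured here.

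Among the SR and SR-like genes the largest rises were in TRA2A, a splicing activator with serine- and arginine-rich tails at both ends, and SRSF10, an SR protein known as a repressor when dephosphorylated after heat shock. SRSF10 (ENSG00000188529, chromosome 1, 23964804 to 23980927) had 120.0 and 117 CPM in the minus Dox libraries and 152 and 156 CPM in the plus Dox libraries (log2 fold change 0.38, SE 0.0435, adjusted p = 2.51e-09 by edgeR). TRA2A (ENSG00000164548, chromosome 7, 23504780 to 23532041) had 70.3 and 63.5 CPM without and 90.3 and 85.0 CPM with doxycycline (log2 fold change 0.39, SE 0.0545, adjusted p = 1.26e-07). In both genes each plus Dox library was above each minus Dox library by more than the replicates differed. SRSF11, a less typical SR protein found in nuclear speckles, had 111 and 114 CPM without and 142 and 135 CPM with doxycycline (log2 fold change 0.30, SE 0.0452, adjusted p = 4.14e-07). SRSF5, an SR protein known to change with growth signals, had 144 and 136 CPM without and 163 and 161 CPM with doxycycline (log2 fold change 0.21, SE 0.0433, adjusted p = 9.65e-05). Their groups did not overlap either. SRSF11 went to −0.089 once the trend over GC, length and abundance was removed (adjusted p = 0.0613), while SRSF10, TRA2A and SRSF5 kept 0.25, 0.31 and 0.11.

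Smaller rises were called in SRSF3, the smallest SR protein and an export adaptor (0.16, from 245 ± 3.60 to 273 ± 4.10 CPM, SD, n = 2), SRSF4 (0.14), SRSF6 (0.13) and SRSF2 (0.12), an enhancer-binding protein mutated in myeloid neoplasms. Each of these calls was lost when 1 library was left out. Without plus Dox replicate 2 the edgeR adjusted p was 0.0544 for SRSF3, 0.188 for SRSF4 and 0.278 for SRSF2, which left 5 SR genes called, and without plus Dox replicate 1 it was 0.169 for SRSF6 and 0.0762 for SRSF4. SRSF2 also missed without minus Dox replicate 2 (0.101), and 36.7% of its exon bases are shared with other genes, MFSD11 among them. The founding SR protein SRSF1 had 306 ± 8.08 and 313 ± 5.81 CPM (SD, n = 2) with overlapping groups, and 60.7% of its exon bases are shared with 2 other genes, so its count is uncertain. TRA2B, the close paralog of TRA2A, had a log2 fold change of 0.060 (adjusted p = 0.239), and SRSF7, SRSF8 and SRSF9 had −0.093, −0.12 and −0.080. Of these SRSF7 and SRSF9 passed as lower without minus Dox replicate 1 (adjusted p = 0.0084 and 0.00492), and SRSF7 also with the trend removed (−0.11, adjusted p = 0.008), and 46.2% of the exon bases of SRSF9 are shared with GATC. SRSF12, with 1.30 CPM in minus Dox, had −0.041 (SE 0.304).

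All 3 SF3A genes and 4 of 6 SF3B genes fell, while SF3B6 rose and SF3B1 did not pass. SF3B3 and SF3B4 belong to the SF3b part, which holds the branch point adenosine, and SF3A3 to the SF3a part, which ties it to the rest of the particle. SF3B3 (ENSG00000189091, chromosome 16, 70523788 to 70577670) had 374 and 382 CPM in the minus Dox libraries and 287 and 283 CPM in the plus Dox libraries (log2 fold change −0.41, SE 0.0369, adjusted p = 8.55e-12 by edgeR). SF3A3 (ENSG00000183431, chromosome 1, 37956975 to 37990921) had 114 and 109 CPM without and 77.7 and 75.9 CPM with doxycycline (log2 fold change −0.54, SE 0.0488, adjusted p = 8.59e-12). SF3B2 (ENSG00000087365, chromosome 11, 66050729 to 66069308) had 392 and 398 CPM without and 309 and 297 CPM with doxycycline (log2 fold change −0.38, SE 0.0371, adjusted p = 4.81e-11). SF3B4 had 192 and 198 CPM without and 149 and 146 CPM with doxycycline (log2 fold change −0.41, SE 0.0416, adjusted p = 1.57e-10). In all 4 genes the plus Dox libraries were below both minus Dox libraries by more than the replicates differed.

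SF3A2 (log2 fold change −0.48), SF3A1 (−0.26), SF3B5 (−0.23) and the large U2AF subunit U2AF2 (−0.15) also fell. SF3B1, the scaffold of SF3b and the most often mutated splicing factor in blood cancers, had 348 ± 4.41 and 340.2 ± 2.88 CPM (SD, n = 2; log2 fold change −0.033, adjusted p = 0.462 by edgeR). SF3B6, the subunit at the branch point, was higher at 0.15, but its call is lost without minus Dox replicate 1, without plus Dox replicate 1 and in DESeq2 (adjusted p = 0.0815, 0.544 and 0.147). SF3B5 missed without plus Dox replicate 1 (0.089). With the trend removed the falls shrank to −0.050 in SF3B3, −0.060 in SF3B4 and −0.082 in SF3B2, where SF3B3 and SF3B4 no longer passed, SF3A3 and SF3A2 kept −0.40 and −0.37, and U2AF2 and SF3B5 turned to 0.24 and 0.25. Against SF3B1 as a partner in the same library, which no library scaling touches, SF3A3 had 32.6 and 31.5 without and 22.7 and 22.4 with doxycycline, in counts per 100 counts of SF3B1.

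U2AF1, the small U2AF subunit that reads the AG, had 19 and 39 counts without and 10 and 13 counts with doxycycline, 0.562 and 1.04 CPM without and 0.284 and 0.388 CPM with doxycycline (log2 fold change −1.26, SE 0.491, adjusted p = 0.0278 by edgeR). Its groups did not overlap, but the call is lost in DESeq2 (adjusted p = 0.181) and when minus Dox replicate 2 (0.429) or either plus Dox library is left out (0.173 and 0.0583). The near-identical copy U2AF1L5, on chromosome 21 as well, had 41 and 42 counts without and 48 and 55 counts with doxycycline. Reads that fit both copies may have been split or dropped, so the level of U2AF1 is uncertain in both groups.

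Levels between genes were compared as CPM per kb of merged exon in GENCODE 29, which understates genes with long rare exons. In minus Dox the highest members were HNRNPK at 179, HNRNPUL1 at 157, U2AF2 at 147, HNRNPAB at 136 and HNRNPA2B1 at 129.8 CPM per kb, and in plus Dox HNRNPK led at 154. SRSF1 was highest among SR genes at 91.5 CPM per kb in minus Dox and 93.7 in plus Dox. The neuronal PTB paralog PTBP2 stood at 0.825 and RBFOX2 at 3.02 CPM per kb in minus Dox. The summed CPM of the 14 SR and SR-like genes was 1985 and 1943 without and 2138 and 2132 with doxycycline, and that of the 27 HNRNP genes 8856 and 8857 without and 7919.7 and 7849.7 with it.

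**Figure D2:**
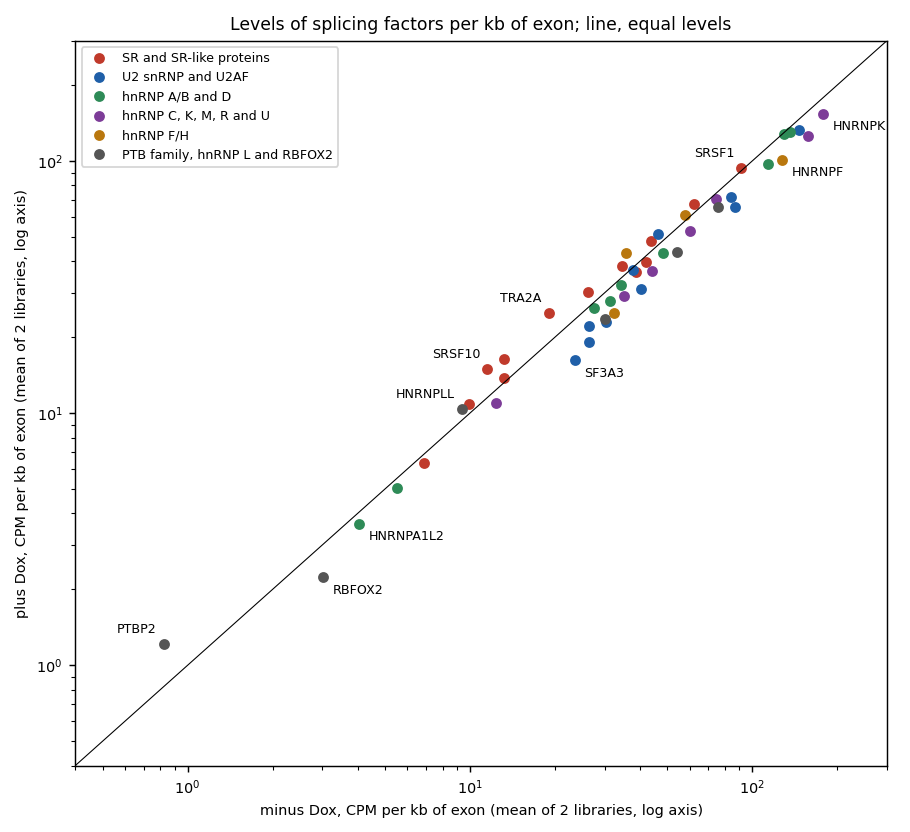
Mean CPM per kb of exon in minus Dox (x) and plus Dox (y), both on log axes, for the 49 tested members with at least 5 CPM in a group, coloured by role, and the line marks equal levels. Members span from PTBP2 to HNRNPK, and each lies close to the line, with SRSF10, TRA2A and PTBP2 above it and SF3A3, HNRNPF and RBFOX2 below it.

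The hnRNP A/B and D genes, which encode abundant RNA-coating proteins, were lower in 4 of 9 (44.4%) with TMM, against 28.4% of all tested genes. With library size only 4 of these 9 (44.4%) were higher, where 43.6% of all tested genes were higher. HNRNPA1, the best-studied splicing repressor among them, had 571 and 592 CPM in the minus Dox libraries and 495 and 493 CPM in the plus Dox libraries (log2 fold change −0.24, SE 0.0349, adjusted p = 3.77e-07 by edgeR). HNRNPD, also known as AUF1, which binds AU-rich elements of unstable mRNAs, had 219.9 and 219.5 CPM without and 194 and 194 CPM with doxycycline (log2 fold change −0.18, SE 0.0395, adjusted p = 1.92e-04). Both genes were lower in each plus Dox library, although HNRNPA1 belongs to a family with many processed copies in the genome, which leaves its count uncertain. HNRNPDL, the neighbour and paralog of HNRNPD on chromosome 4, had 266 and 261 CPM without and 239 and 235 CPM with doxycycline (log2 fold change −0.15, SE 0.0384, adjusted p = 8.52e-04). HNRNPA3 had 212 and 203 CPM without and 197 and 191 CPM with doxycycline (log2 fold change −0.095, SE 0.0410, adjusted p = 0.0465). The call of HNRNPDL is lost without plus Dox replicate 2 (adjusted p = 0.0535), and that of HNRNPA3 when minus Dox replicate 1 (0.0869) or either plus Dox library is left out (0.124 and 0.385) and in DESeq2 (0.0778).

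HNRNPA2B1, the most abundant member by CPM, had 1203 ± 22.1 and 1188 ± 20.5 CPM (SD, n = 2) with overlapping groups. HNRNPAB and HNRNPA0 had log2 fold changes of −0.063 and −0.065 and did not pass, but passed as lower without minus Dox replicate 2 (adjusted p = 0.0115) and without minus Dox replicate 1 (0.018). The HNRNPA1-like genes HNRNPA1L2 and HNRNPA1L3 did not pass, at −0.16 and −0.13, with counts that may hold reads of HNRNPA1. No gene of this group rose with TMM, but with library size only 4 of the 9 were called higher, HNRNPA2B1, HNRNPAB, HNRNPA0 and HNRNPA3, and 0 lower. HNRNPA1 lay at −0.021 with library size only and 0.032 with the trend removed, and HNRNPD at 0.036 and −0.55.

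Of the hnRNP C, K, M, R and U genes 6 of 8 tested members (75%) fell and 0 rose with TMM. Of all tested genes 28.4% were lower and 28.4% higher. Where library size alone was used 1 of the 8 was lower and 1 higher (12.5% each), against 16.2% and 43.6% of all tested genes. With the trend removed 2 were lower (25%) and 3 higher (37.5%), against 24.9% and 29.5%. HNRNPUL1, a relative of HNRNPU with roles in DNA damage signalling, had 1004 and 1055 CPM in the minus Dox libraries and 828 and 810.0 CPM in the plus Dox libraries (log2 fold change −0.33, SE 0.0339, adjusted p = 1.70e-10 by edgeR). HNRNPU, also known as scaffold attachment factor A, had 1004 and 979 CPM without and 827 and 825 CPM with doxycycline (log2 fold change −0.26, SE 0.0329, adjusted p = 1.38e-08). HNRNPR had 303 and 308 CPM without and 255 and 252 CPM with doxycycline (log2 fold change −0.27, SE 0.0376, adjusted p = 1.36e-07). The poly(C)-binding HNRNPK had 924 and 903 CPM without and 781 and 790.3 CPM with doxycycline (log2 fold change −0.22, SE 0.0331, adjusted p = 7.11e-07). Each of these 4 was lower in both plus Dox libraries. HNRNPM (log2 fold change −0.19) and HNRNPUL2 (−0.17) fell too, and HNRNPUL2 missed without minus Dox replicate 1 (adjusted p = 0.0652) and without plus Dox replicate 1 (0.196). HNRNPC, which guards introns against Alu exons, had −0.073 (adjusted p = 0.0745), and passed as lower without minus Dox replicate 2 (7.66e-04) and with no filter on low counts (0.0424).

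These values moved with library size only and with the trend removed. HNRNPUL1 lay at −0.11 with library size only and 0.17 with the trend removed, HNRNPU at −0.047 and −0.13, HNRNPK at −0.00089 and 0.098, and HNRNPR at −0.052 and −0.65. The readthrough gene HNRNPUL2-BSCL2 had −0.56 (SE 0.303), and all of its exon bases and 44.1% of those of HNRNPUL2 are shared with other genes, so both counts are uncertain. HNRNPCL1, a copy of the HNRNPC coding sequence, had 2 and 4 counts without doxycycline and 0 with it and was not tested. Its copies HNRNPCL2, HNRNPCL3 and HNRNPCL4 had 0 counts in all 4 libraries, each of which allows up to 3 counts, 0.0740 to 0.0964 CPM before scaling, for counting error only.

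The hnRNP F/H genes, whose proteins bind runs of G, moved apart. HNRNPF had 414 and 418 CPM in the minus Dox libraries and 330.1 and 326 CPM in the plus Dox libraries (log2 fold change −0.34, SE 0.0362, adjusted p = 3.11e-10 by edgeR). HNRNPH3 (ENSG00000096746, chromosome 10, 68331174 to 68343191) had 168 and 179.8 CPM without and 136 and 132 CPM with doxycycline (log2 fold change −0.37, SE 0.0440, adjusted p = 3.45e-09). HNRNPH2 (ENSG00000126945, chromosome X, 101408295 to 101414133) had 80.1 and 79.1 CPM without and 101 and 91.4 CPM with doxycycline (log2 fold change 0.28, SE 0.0517, adjusted p = 2.17e-05). HNRNPF and HNRNPH3 were thus lower and HNRNPH2 higher in each plus Dox library. HNRNPH1, the paralog closest to HNRNPH2, had 537 and 557 CPM without and 582 and 572 CPM with doxycycline (log2 fold change 0.077, SE 0.0349, adjusted p = 0.0578) and passed as higher without minus Dox replicate 2 (adjusted p = 0.00272), but as lower with the trend removed (−0.079, adjusted p = 0.0274). HNRNPH2 had 19.4 and 18.9 without and 30.6 and 28.1 with doxycycline, in counts per 100 counts of HNRNPF, a ratio within each library that library scaling leaves alone. HNRNPF turned to 0.046 with the trend removed, whereas HNRNPH2 and HNRNPH3 kept 0.36 and −0.32.

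The PTB family, which represses exons through pyrimidine-rich tracts, was split by paralog. PTBP3 (ENSG00000119314, chromosome 9, 112217716 to 112333667) had 254 and 241 CPM in the minus Dox libraries and 195 and 194 CPM in the plus Dox libraries (log2 fold change −0.34, SE 0.0402, adjusted p = 3.11e-09 by edgeR). PTBP1, the main form outside neurons, had 522 and 524 CPM without and 448 and 459.8 CPM with doxycycline (log2 fold change −0.20, SE 0.0351, adjusted p = 5.92e-06). Both were lower in each plus Dox library. PTBP2, the neuronal form that PTBP1 holds down by skipping an exon of its mRNA, had 10.4 and 10.9 CPM without and 15.0 and 16.4 CPM with doxycycline (log2 fold change 0.56, SE 0.0995, adjusted p = 1.07e-05), and it is named for its direction after its values were seen. PTBP2 had 2.00 and 2.08 without and 3.35 and 3.56 with doxycycline, in counts per 100 counts of PTBP1. With the trend removed PTBP1 lay at 0.14 and PTBP2 at −0.12, where PTBP2 did not pass (adjusted p = 0.34).

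The related HNRNPL, which binds CA repeats, had 367 and 369.6 CPM without and 293 and 299.5 CPM with doxycycline (log2 fold change −0.31, SE 0.0368, adjusted p = 3.74e-09 by edgeR). Its paralog HNRNPLL, known from CD45 splicing in T cells, had 58.6 and 52.9 CPM without and 59.9 and 62.8 CPM with doxycycline (log2 fold change 0.14, SE 0.0586, adjusted p = 0.0412). HNRNPL was lower and HNRNPLL slightly higher, so that HNRNPLL had 16.0 and 14.3 without and 20.4 and 21.0 with doxycycline, in counts per 100 counts of HNRNPL. The call of HNRNPLL is lost when minus Dox replicate 2 or either plus Dox library is left out (adjusted p = 0.45, 0.0842 and 0.341) and in DESeq2 (0.178), and with the trend removed it turned to −0.15 and HNRNPL to 0.018. RBFOX2 (ENSG00000100320, chromosome 22, 35738736 to 36028425), which binds GCAUG and is known for splicing changes in the epithelial-mesenchymal transition, had 29.4 and 31.2 CPM without and 21.3 and 23.4 CPM with doxycycline (log2 fold change −0.44, SE 0.0765, adjusted p = 6.50e-06). It was lower in both plus Dox libraries and fell under every setting tried, at −0.22 with library size only and −0.42 with the trend removed. The ratios given here are between pairs chosen after the values were seen, and with 2 against 2 libraries an exact two-sided permutation test cannot go below p = 0.333.

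**Figure D3:**
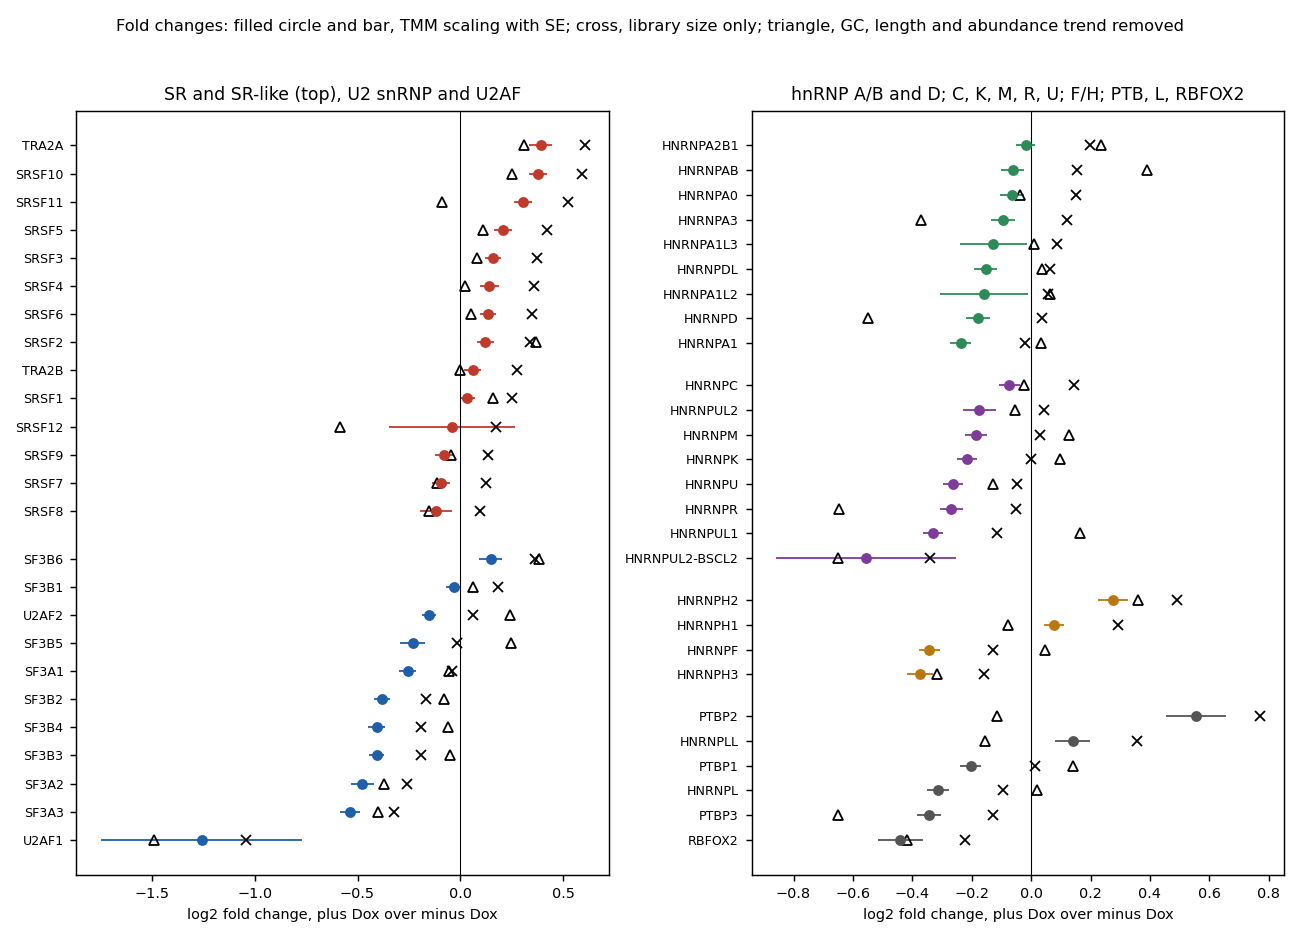
The x axis is the log2 fold change of plus Dox over minus Dox for the 52 tested members. Filled circles with SE bars are TMM-scaled edgeR values, crosses use library size only and open triangles are free of the trend over GC, length and abundance. Crosses lie about 0.22 to the right of the circles, and triangles lie across 0 from the circles for HNRNPUL1, HNRNPK, HNRNPF and HNRNPL and stay on the same side for TRA2A, SRSF10, SF3A2, SF3A3, HNRNPH2, HNRNPH3, PTBP3 and RBFOX2.

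The kinases that phosphorylate SR proteins, together with import factors, were higher in 6 of 11 genes (54.5%), lower in 2 (18.2%) and not past in 3. Of all tested genes 28.4% were called in each direction. The median log2 fold change of the list was 0.27 against 0.00 for all tested genes. By library size only 8 (72.7%) were higher and 1 (9.09%) lower, against 43.6% and 16.2% of all tested genes. With the trend removed 5 (45.5%) were higher and 1 (9.09%) lower, against 29.5% and 24.9%, at a median of 0.087 against 0.032. Values for the genes of these lists are means ± SD with n = 2, minus Dox first. SRPK2, a cytoplasmic SR kinase, rose (79.2 ± 2.68 to 111 ± 0.919 CPM), as did the CDC2-like kinase CLK4 (19.1 ± 1.08 to 31.6 ± 0.248 CPM), the spliceosomal kinase PRPF4B (111 ± 3.38 to 149.8 ± 2.21 CPM) and the import receptor TNPO1 (386 ± 30.2 to 479 ± 8.97 CPM). SRPK1 had 107 ± 3.82 and 108 ± 0.580 CPM (SD, n = 2), and CLK2 fell (log2 fold change −0.45). TNPO3, the other import receptor of the list, fell as well (165 ± 0.885 to 148 ± 2.16 CPM, log2 fold change −0.15). SRPK1, CLK2 and TNPO3 were named after their values were seen. Core snRNP and catalytic proteins of the spliceosome, in contrast, were lower in 23 of 29 (79.3%), higher in 4 (13.8%) and not past in 2, with a median of −0.22. The helicases SNRNP200 (497 ± 10.3 to 343 ± 1.86 CPM) and DDX23 (338 ± 14.3 to 231 ± 1.62 CPM), the Sm protein SNRPD2 (217 ± 10.1 to 147 ± 1.68 CPM) and the U5 GTPase EFTUD2 (421 ± 10.9 to 314 ± 1.11 CPM) had the lowest adjusted p-values. With library size only 10 core genes (34.5%) were lower and 6 (20.7%) higher (median 0.00022), against 16.2% and 43.6% of all tested genes. With the trend removed 12 (41.4%) were lower and 9 (31%) higher (median −0.049), against 24.9% and 29.5%.

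Among 18 SR-related coactivators and speckle proteins 6 rose, 8 fell and 4 did not pass, while 12 were higher and 1 lower with library size only. SREK1 (91.7 ± 5.38 to 138 ± 0.475 CPM) and BCLAF1 (139 ± 6.24 to 188 ± 2.44 CPM) rose, and the exon junction cofactor RNPS1 (143 ± 5.57 to 112 ± 3.14 CPM) and the speckle scaffold SRRM2 (1024 ± 40.9 to 856 ± 6.72 CPM) fell. Of 10 tested hnRNP relatives with other symbols 4 fell, 1 rose and 5 did not pass, while 2 were lower and 5 higher with library size only. The poly(C)-binding PCBP1 (231 ± 3.09 to 174 ± 5.01 CPM) and RBMX (326 ± 0.660 to 259 ± 2.42 CPM) fell and PCBP4 rose (15.7 ± 1.31 to 21.1 ± 0.400 CPM). Exon junction and nonsense-mediated decay genes were lower in 6 of 15, higher in 2 and not past in 7, and with library size only lower in 1 and higher in 7. SMG9, UPF1, UPF2 and SMG1 had log2 fold changes of −0.38, −0.19, −0.23 and −0.18. With library size only the shares called higher in these lists were, in order, 66.7%, 50% and 46.7%, and the shares lower 5.56%, 20% and 6.67%. All tested genes gave 43.6% higher and 16.2% lower in that setting, and 28.4% in each direction with TMM.

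Other regulators of alternative splicing were higher in 13 of 26 tested genes (50%), lower in 5 (19.2%) and not past in 8, with a median of 0.15. Of all tested genes 28.4% were higher and 28.4% lower. With library size only 20 of the 26 were higher (76.9%) and 3 lower (11.5%), against 43.6% and 16.2%. With the trend removed 13 were higher and 7 lower (median 0.11), against 29.5% and 24.9%. Of the genes that rose with TMM, KHDRBS3, MATR3, CELF5, ESRP1 and CELF4 stood below 5 CPM in both groups. The neuronal regulators NOVA2 (3.54 ± 0.277 to 15.4 ± 0.163 CPM) and NOVA1 (12.3 ± 0.215 to 19.8 ± 1.13 CPM) rose. The RNA-binding proteins EWSR1 (353 ± 8.05 to 276 ± 5.06 CPM) and TAF15 (173 ± 3.91 to 138 ± 2.55 CPM) fell. RBFOX3, named after its values were seen, fell too (6.26 ± 0.814 to 3.24 ± 0.0320 CPM, log2 fold change −0.94). MATR3, counted among those that rose, has 2 entries under its symbol in the files, so its count is uncertain. Over all 6 lists 32 of 109 tested genes (29.4%) were higher and 48 (44.0%) lower, with 58 higher (53.2%) and 18 lower (16.5%) by library size only, where all tested genes gave 43.6% and 16.2%. With the trend removed the balance turned, at 44 higher (40.4%) and 32 lower (29.4%), against 29.5% and 24.9%.

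**Figure D4:**
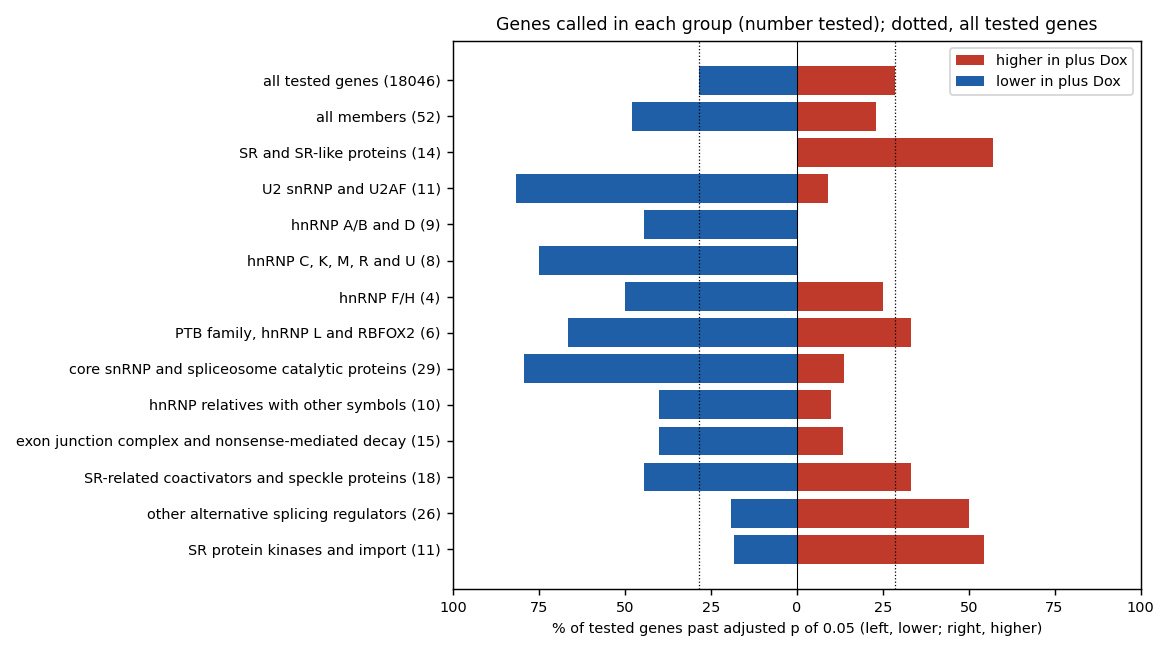
Bars give the percent of tested genes past an adjusted p of 0.05 in edgeR, higher in plus Dox to the right and lower to the left, for all tested genes, all members, the 6 roles and the 6 other lists, with the number tested in brackets. Dotted lines mark the 28.4% of all tested genes in each direction. SR genes and their kinases lie to the right, and U2 genes and core snRNP proteins to the left.

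For 13 members a tested protein-coding gene starts on the opposite strand within 1000 bases of the member's start. Such pairs did not always move together. HNRNPK fell while its neighbour RMI1 rose (0.45, adjusted p = 1.98e-06 by edgeR), and HNRNPDL fell while ENOPH1 rose (0.23, 9.55e-04). HNRNPA1 fell and the heterochromatin protein gene CBX5, whose start lies 60 bases away, did not pass (0.020, 0.66). SRSF11 and LRRC40, 62 bases apart, both rose, LRRC40 from 17.3 to 32.2 CPM (0.90, 5.72e-12), and SF3B3 and COG4 both fell (−0.27, 2.11e-05). HNRNPUL2 and TTC9C both fell too (−0.23 in TTC9C, 0.00774 by edgeR), and HNRNPH2 and GLA both rose (0.12 in GLA, 0.0329). These directions are with TMM. With the trend over GC, length and abundance removed, HNRNPK, HNRNPDL, HNRNPA1 and SRSF11 turned. Neither HNRNPA2B1 nor its neighbour CBX3 passed. The pairs named here were chosen after their values were seen.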

How the data were processed

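Messenger RNA selected by polyA was sequenced from 4 A549 libraries. A stranded mRNA kit was used, per the labels' protocols. The authors deposited 1 table of raw gene counts for each library. DRAGEN, cutadapt 4.0, STAR 2.7.10b, featureCounts 2.0.3, DESeq2 2.11.40.7 and the build hg38 are named per the submitters' processing notes. The annotation and strand setting were not given in the sources used here, so a gene and its antisense partner cannot be told apart and near-identical genes may have been split. Symbols came from a name table (56948 of 58051 genes matched), and biotype, exons and GC content from GENCODE 29 (57447 matched). In R 4.3.3, genes passing filterByExpr were scaled by TMM (factors 0.926 to 1.079) and tested between groups by quasi-likelihood in edgeR 4.0.16, adjusted by Benjamini and Hochberg over 18046 genes. Fold changes are the fitted values of this model. Alternatives were DESeq2 1.42.0, other scalings, no filter, a block, an offset removing smooth trends in GC content, exon length and abundance (mgcv 1.9.3), and each library left out, which leaves 1 library in a group whose spread is assumed to be that of the other group. Named genes were, in each role, at most 4 members of lowest adjusted p and those passing with at least a 2-fold change, and from each other list up to 4 genes with the lowest adjusted p, of which 1 is not reported here. The members and lists were chosen with earlier results of these data known. Sharing over 25% of exon bases with another gene marks a count as uncertain.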

Additional observations from a re-analysis of the deposited data

How the results depend on the processing

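Counts of calls moved with the scaling and with a gene trend. With library size only 23 members were higher and 11 lower (12 and 25 with TMM), U2 genes lower fell to 5 (from 9) and HNRNP genes lower to 4 (from 13), genes of the 6 lists went to 58 higher and 18 lower (from 32 and 48), and all tested genes to 7865 higher and 2925 lower (from 5133 and 5132). With the trend over GC, length and abundance taken out 14 members, 4 U2 genes and 7 HNRNP genes were lower. Log2 fold changes that turned, and passed in at least 1 of the settings compared, were with library size only HNRNPA2B1 0.20, HNRNPAB 0.15, HNRNPA0 0.15, HNRNPA3 0.12, HNRNPDL 0.063, HNRNPD 0.036, HNRNPC 0.14, HNRNPUL2 0.042, HNRNPM 0.029, PTBP1 0.013, SRSF9 0.14, SRSF7 0.12, SF3B1 0.18 and U2AF2 0.063, and with that trend taken out HNRNPA2B1 0.23, HNRNPAB 0.39, HNRNPDL 0.038, HNRNPA1 0.032, HNRNPM 0.13, HNRNPK 0.098, HNRNPUL1 0.17, HNRNPH1 −0.079, HNRNPF 0.046, PTBP2 −0.12, HNRNPLL −0.15, PTBP1 0.14, HNRNPL 0.018, SRSF11 −0.089, U2AF2 0.24 and SF3B5 0.25. That library size only adds about the same 0.22 to each gene follows from its construction, and why the trend moved single genes was not tested. DESeq2's size factors in edgeR changed no member's call, no called member changed direction in DESeq2, without the low-count filter, in the block or with any 1 library left out, and every biotype under the symbols gave 12 higher and 31 lower. With a library left out members higher were 8 to 11, members lower 21 to 26, SR genes higher 5 to 8, U2 genes lower 7 to 9 and HNRNP genes lower 11 to 15. A replicate block, for the numbers the groups share, gave 12 and 25 members and 5219 and 5195 genes in all, and deviations of same-numbered libraries had r = 0.00226, so the numbers were not taken as pairs. At 10 to 39 counts the depth of U2AF1 is too low for a steady call.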
